A study of Homo sapiens with 8 samples.

Results

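ZEB1, ZEB2, FOXQ1, TCF4 and ESRP1 are 5 genes tied to the change between epithelial and mesenchymal states. They are 5 of the 8927 genes that could be named on the array, read from 11 of its 54613 non-control probe sets. A probe set was taken where the authors' deposited table gave it one of these symbols or an older name for the same gene. ZEB1 had 3 probe sets, ZEB2 had 4, ESRP1 had 2 (listed under its older name RBM35A), and FOXQ1 and TCF4 had 1 each. The cells were HMLE, a human mammary epithelial line that has been immortalized, grown in MEGM medium, and total RNA was hybridised to 8 single-colour Affymetrix arrays. The CD24hi group was HMLE cells sorted as positive for the surface protein CD24, and MSP1, MSP2 and MSP3 were mesenchymal subpopulations found within the same line. Each of the 4 groups had 2 arrays, a and b, no added agent or allele set the groups apart in the labels, and the sources used here do not say how the MSP cells were isolated. Each MSP group was set against CD24hi and against the other MSP groups.

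ZEB1 and ZEB2 are zinc finger and homeodomain proteins that bind E-box elements in the promoters of epithelial genes and recruit corepressors there. FOXQ1 is a forkhead factor that has been reported to promote mesenchymal traits when forced into epithelial cells, TCF4 is a basic helix-loop-helix E protein that binds E-boxes too, and ESRP1 is an RNA-binding protein that keeps the epithelial splice forms of its target transcripts. In mammary cells ZEB1 is best known as a repressor of the E-cadherin gene CDH1, and ESRP1 for the epithelial forms of CD44 and FGFR2.

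The E-box form read by ZEB proteins is CACCTG, or CAGGTG on the other strand, and RefSeq promoter windows (GRCh38.p14) of 300 bases (250 before and 50 after a transcript start) were searched for it on both strands. It occurred in 20.59% of 35116 windows. ZEB1 had 7 windows, of which 1 held 3 matches, the window at the outer start of the gene held 1 and the other 5 held none. ZEB2 and FOXQ1 had 1 window each, with none. Shown first are the ZEB1 window with 3 matches, at chr10:31318966-31319265 (+), and the windows of ZEB2, at chr2:144520070-144520369 (-), and FOXQ1, at chr6:1311848-1312147 (+). CRB3, a polarity gene, at chr19:6464021-6464320 (+) with 5 matches, and RAB25, a small GTPase of membrane recycling in epithelia, at chr1:156060910-156061209 (+) with 2, are shown as examples of genes reported elsewhere to be repressed by ZEB1 that were lower in the MSP groups. Each runs 5′ to 3′ on the gene's strand, and capitals mark CACCTG or CAGGTG.
ZEB1: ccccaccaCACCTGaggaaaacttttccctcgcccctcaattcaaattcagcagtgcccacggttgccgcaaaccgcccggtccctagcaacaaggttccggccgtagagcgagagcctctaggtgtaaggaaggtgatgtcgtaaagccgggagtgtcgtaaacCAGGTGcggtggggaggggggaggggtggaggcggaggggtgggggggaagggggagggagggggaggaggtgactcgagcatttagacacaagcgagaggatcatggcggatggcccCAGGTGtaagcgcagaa
ZEB2: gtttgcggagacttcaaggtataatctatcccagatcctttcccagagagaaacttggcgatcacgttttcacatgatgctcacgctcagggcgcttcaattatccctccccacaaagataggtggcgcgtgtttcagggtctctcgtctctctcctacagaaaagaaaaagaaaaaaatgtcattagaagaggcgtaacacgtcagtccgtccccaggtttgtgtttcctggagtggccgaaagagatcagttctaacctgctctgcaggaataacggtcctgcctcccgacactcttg
FOXQ1: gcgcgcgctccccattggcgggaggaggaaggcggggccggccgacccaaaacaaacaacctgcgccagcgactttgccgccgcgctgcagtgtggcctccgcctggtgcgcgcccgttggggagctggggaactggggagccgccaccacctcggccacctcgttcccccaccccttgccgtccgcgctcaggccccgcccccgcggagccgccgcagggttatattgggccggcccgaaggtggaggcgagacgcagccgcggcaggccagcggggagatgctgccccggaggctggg
CRB3: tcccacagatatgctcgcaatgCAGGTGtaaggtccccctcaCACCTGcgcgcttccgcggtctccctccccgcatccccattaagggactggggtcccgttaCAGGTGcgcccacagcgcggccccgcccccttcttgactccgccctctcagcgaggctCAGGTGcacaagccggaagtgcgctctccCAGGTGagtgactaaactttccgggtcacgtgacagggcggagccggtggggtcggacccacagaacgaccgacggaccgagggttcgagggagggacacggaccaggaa
RAB25: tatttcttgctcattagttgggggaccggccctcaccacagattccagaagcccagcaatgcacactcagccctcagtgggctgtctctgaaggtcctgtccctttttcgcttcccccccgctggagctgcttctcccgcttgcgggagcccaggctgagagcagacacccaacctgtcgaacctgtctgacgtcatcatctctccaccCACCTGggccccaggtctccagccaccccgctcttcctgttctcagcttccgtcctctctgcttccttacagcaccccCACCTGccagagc
A match of these letters is a description of the window, and binding was not measured.

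In RefSeq's GRCh38.p14 gene table ZEB1 spans chromosome 10 from 31318417 to 31529804, ZEB2 chromosome 2 from 144384081 to 144520119, FOXQ1 chromosome 6 from 1312098 to 1314758, TCF4 chromosome 18 from 55222185 to 55635957 and ESRP1 chromosome 8 from 94641174 to 94707466. These spans hold introns as well as exons, and the files give no position for a probe set.

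Signals are in the deposited linear units, scaled to a 2% trimmed mean of 150 on every array. The median array signal was 15.5 to 20.2, and 57.6% to 60.3% of probe sets on an array lay under 32, the level below which a signal is called dim here. The pair of CD24hi arrays was less alike than the other pairs: 24.3% of 14072 probe sets with a mean of at least 128 differed more than 2-fold between them, against 1.88% for MSP1, 5.47% for MSP2 and 6.42% for MSP3. The labelled cell types were checked against marker genes. The summed signal of 7 epithelial markers was 33546 and 49455 in CD24hi and 2819 to 5749 over the 6 MSP arrays. Most of the MSP sum was the keratin KRT14, at 2386 to 4831 there against 12425 and 8835 in CD24hi. KRT14 alone of the 7 was not called (adjusted p = 0.0677), while all 7 were called lower with dim signals raised. The summed signal of 6 mesenchymal markers was 9154 and 12960 in CD24hi and 30004 to 45769 in MSP. E-cadherin (CDH1) and EPCAM, an epithelial adhesion molecule, were lower in MSP, while VIM (vimentin), CDH2 (N-cadherin) and FN1 (fibronectin) were not called (adjusted p = 0.534, 0.0807 and 0.0649), and the collagens COL1A2 and COL3A1 were called higher. CDH2 and FN1 were called higher without CD24hi array a (0.0279 and 0.0344), and with dim signals raised, with the filter on mean signal, with intensity trend and with 1 probe set per gene (CDH2 0.0122 to 0.036, FN1 0.00674 to 0.022). The 6 mesenchymal markers then had 5 called rather than 2 under each of the last 4 settings. VIM was high in both cell types, at 5940 and 7893 in CD24hi. Markers of leukocytes (3 of 5 measured), endothelial cells (3 of 4) and melanocytes (1 of 3) had no signal above 74.4, and none of the 3 adipocyte markers was measured. Whether fewer cells of a type or less RNA per cell lay behind a lower signal cannot be told apart in such pooled RNA.

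The ZEB repressors were the members that went up. ZEB1 was dim in CD24hi and bright in all 6 MSP arrays, and its 3 probe sets moved the same way. All 3 were named only through a part of the authors' table chosen on the authors' p-values against CD24hi. Their agreement is therefore not independent of the naming, and the same holds for both ESRP1 probe sets and the called ZEB2 probe sets. For the brightest, 210875_s_at, the signal was 3.64 and 11.4 on the CD24hi arrays, 397 and 453 in MSP1, 649 and 435 in MSP2 and 354 and 419 in MSP3. The groups did not overlap, and the MSP mean was at least 13.8-fold above CD24hi, counted from the dim limit of 32. Its log2 change was 6.10 ± 0.48 (SE of the fit, n = 2 arrays per group, adjusted p = 0.00439).

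A second ZEB1 probe set, 212758_s_at, had the smallest standard error of the 11. Its signal was 17.2 and 16.9 in CD24hi, 255 and 277 in MSP1, 337 and 333 in MSP2 and 244 and 254 in MSP3. Both CD24hi arrays lay below all MSP arrays, at least 8.78-fold under the MSP mean (log2 change 4.04 ± 0.25, adjusted p = 0.0026). The third, 239952_at, read 1.11 and 1.88 in CD24hi and 34.9 to 58.4 over the MSP arrays, close to the dim limit. Its fitted log2 change was 4.87 ± 0.36 (adjusted p = 0.00371), but the measured bound was only 1.32-fold, and with signals under 32 raised to 32 the log2 change was 0.40 (adjusted p = 0.314). In the authors' deposited table the log2 changes of 210875_s_at were 5.51, 5.70 and 5.32 for MSP1, MSP2 and MSP3, and those of 239952_at were 1.73, 1.73 and 1.64.

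ZEB2, the paralog of ZEB1, also rose. Probe set 203603_s_at read 7.77 and 2.60 in CD24hi, 145 and 150 in MSP1, 143 and 135 in MSP2 and 110 and 181 in MSP3. No MSP array came near the CD24hi pair, and the MSP mean was at least 4.45-fold higher, with a log2 change of 4.99 ± 0.48 (SE) and an adjusted p of 0.0067. A further ZEB2 probe set, 235593_at, read 1.31 and 0.534 in CD24hi and 20.9 to 41.5 in the MSP arrays (log2 change 5.17 ± 0.43, adjusted p = 0.00505). Its MSP mean of 30.1 was itself dim, so no fold is given, and with signals under 32 raised to 32 its log2 change was 0.06 (adjusted p = 0.826).

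The remaining ZEB2 probe sets were dim on every array. For 1557797_a_at the signal was 2.996 and 2.09 in CD24hi and 3.32 to 10.4 in MSP, and its difference was not called (adjusted p = 0.219). For 1562194_at the values were 2.58 and 0.644 in CD24hi, 4.59 and 2.41 in MSP1, 11.6 and 15.8 in MSP2 and 12.3 and 14.2 in MSP3. MSP1 overlapped CD24hi and the other MSP groups lay above both, all under 32 (log2 change of the MSP mean 2.71 ± 0.58, adjusted p = 0.0782). Without CD24hi array a the change was 3.71, and after quantile normalization it was 2.78 (adjusted p = 0.0463). The authors' deposited log2 changes of this probe set were 0.03 in MSP1, 0.33 in MSP2 and 0.43 in MSP3 (their p = 0.975, 0.613 and 0.427).

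FOXQ1 went the other way from the ZEB factors. Its single probe set, 227475_at, read 113 and 55.5 in CD24hi, 7.90 and 12.5 in MSP1, 12.2 and 11.6 in MSP2 and 9.39 and 12.9 in MSP3. Every MSP array was dim and below both CD24hi arrays, and the MSP mean was at least 2.48-fold lower. The log2 change of the MSP mean was -2.86 ± 0.39 (adjusted p = 0.0204), and against single groups FOXQ1 was called lower in MSP1 (adjusted p = 0.0461) but not in MSP2 (0.0646) or MSP3 (0.0558). These calls moved with the settings: MSP2 was called with intensity trend (0.0293) and with 1 probe set per gene (0.0178), MSP3 with each of these (0.0235 and 0.0148) and with quantile normalization (0.0477), and MSP1 was not called with dim signals raised (0.0779). The CD24hi arrays were 1.03 log2 units apart, with a above b. Leaving out any 1 array other than CD24hi b ended the call of the MSP mean, with log2 changes of -2.97 to -2.35 and adjusted p of 0.0501 to 0.0691. Without CD24hi b the change was -3.37 (adjusted p = 0.0418). The call in MSP1 was lost in all 8 leave-outs (adjusted p 0.0607 to 0.231).

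ESRP1 fell from a high signal to a dim one. Probe set 225846_at read 1224 and 1162 in CD24hi, 4.76 and 1.28 in MSP1, 0.945 and 0.852 in MSP2 and 9.39 and 5.88 in MSP3. The second, 219121_s_at, read 1019 and 1140 in CD24hi and 1.498 to 6.64 over the MSP arrays. Both were bright in CD24hi and far under the dim limit on all 6 MSP arrays. The MSP mean was at least 37.3-fold lower by the first (log2 change -8.87 ± 0.53, adjusted p = 0.00256) and at least 33.7-fold lower by the second (-8.77 ± 0.49, adjusted p = 0.00238). Among all 54613 log2 changes, counted from the lowest, these stood at positions 7 and 10, although values far below the dim limit have no firm order.

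TCF4 was the member without a called change. Probe set 203753_at read 90.2 and 71.1 in CD24hi, 30.1 and 42.2 in MSP1, 85.3 and 64.4 in MSP2 and 76.5 and 50.8 in MSP3. MSP1 lay below the other groups, which overlapped each other. The group levels ran from 80.1 in CD24hi through 74.2 in MSP2 and 62.4 in MSP3 to 35.6 in MSP1. The MSP mean differed from CD24hi by -0.55 ± 0.33 (95% interval -1.35 to 0.26, adjusted p = 0.488). In MSP1 alone the difference was -1.17 ± 0.40, with an unadjusted p of 0.027 and an adjusted p of 0.291. In MSP3 alone it was -0.36 (95% interval -1.34 to 0.62). In MSP2 alone it was -0.11 (95% interval -1.10 to 0.87) and turned to 0.06 without CD24hi array a and to 0.091 without MSP2 array b. The authors' deposited log2 changes were all below 0: -1.13 in MSP1 (their p = 0.0331), -0.59 in MSP2 (0.240) and -0.61 in MSP3 (0.201). TCF4 was read by this single probe set, so no other probe set bears on it here.

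**Figure D1:**
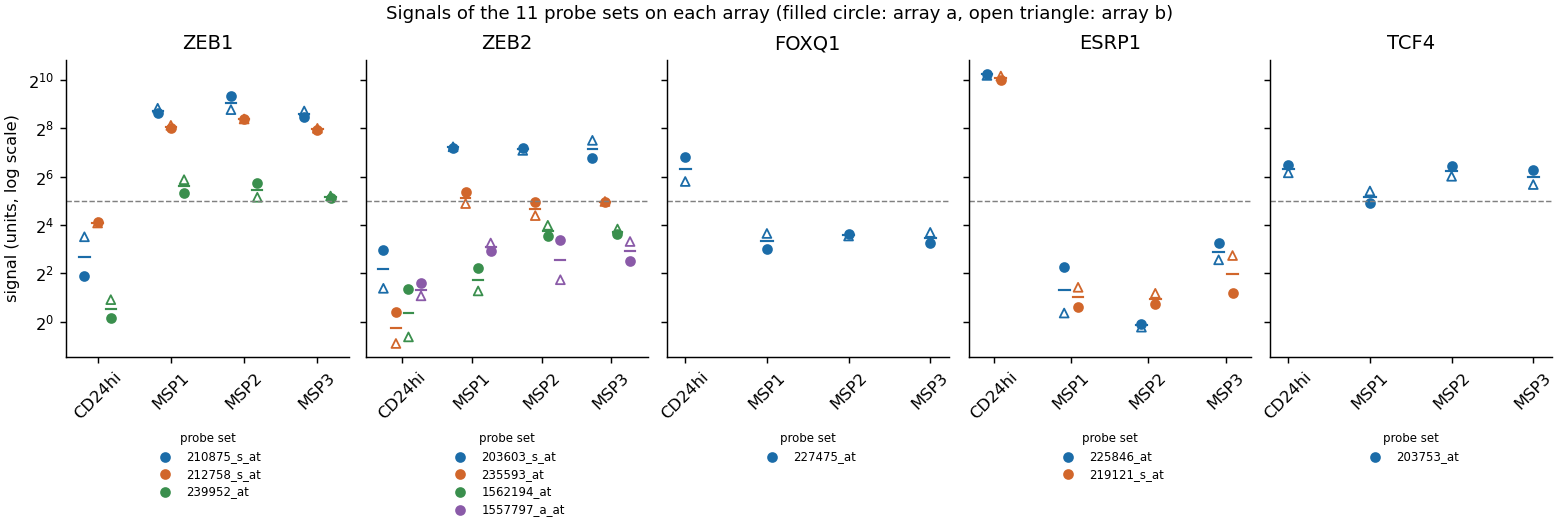
Signal of each of the 11 probe sets (vertical axis, deposited units, log scale) on the 2 arrays of each group (horizontal axis), in 1 panel per gene. Filled circles are array a, open triangles array b, short bars the geometric mean of the pair and the dashed line the dim limit of 32. ZEB1 and ZEB2 climb from CD24hi to MSP, ESRP1 drops from 1019 or more to 9.39 or less, FOXQ1 drops from 113 and 55.5 to 12.9 or less, and TCF4 stays between 30.1 and 90.2.

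Against CD24hi, 5 member probe sets were called higher (3 of ZEB1, 2 of ZEB2), 3 lower (FOXQ1 and both of ESRP1) and 3 were not called in the MSP mean. Over the whole array 3.17% of probe sets were called in that comparison, 1.58% higher and 1.59% lower. The 8 called members carried a symbol only in the opening part of the authors' table, which holds 2256 probe sets whose p-value from the authors was 0.05 or less against CD24hi in each of the 3 MSP groups. Their calls are therefore not independent of how they came to be named, and nothing is read from the count. The 3 probe sets named in the table's array-order part (TCF4 and the dim ZEB2 pair) were the 3 not called. In MSP1 the count was 5 higher and 3 lower, with 1.81% of the array called (0.775% higher, 1.03% lower). In MSP2 it was 5 higher and 2 lower, with 1.56% of the array called (0.747% higher, 0.811% lower), and in MSP3 5 higher and 2 lower, with 1.57% called (0.787% higher, 0.787% lower). These comparisons share the CD24hi arrays. Without CD24hi array a, 6 members were called higher and 2 lower in the MSP mean, and without array b 5 higher and 3 lower. Calls in 1 MSP group rested on both of its arrays: with MSP1, MSP2 or MSP3 reduced to 1 array, the adjusted p of ZEB1 210875_s_at in that group reached 0.0963, 0.105 and 0.1003. Over all 8 leave-outs of 1 array from any group, ZEB2 203603_s_at kept its call in 4 in MSP1 and in 2 each in MSP2 and MSP3. Its log2 changes there ran from 4.25 to 5.83 in MSP1, 4.16 to 5.75 in MSP2 and 4.18 to 5.76 in MSP3. Its call in each MSP group was also lost without some arrays of other MSP groups. Without CD24hi array b the ESRP1 225846_at change in MSP3 was -7.36 and was not called.

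**Figure D2:**
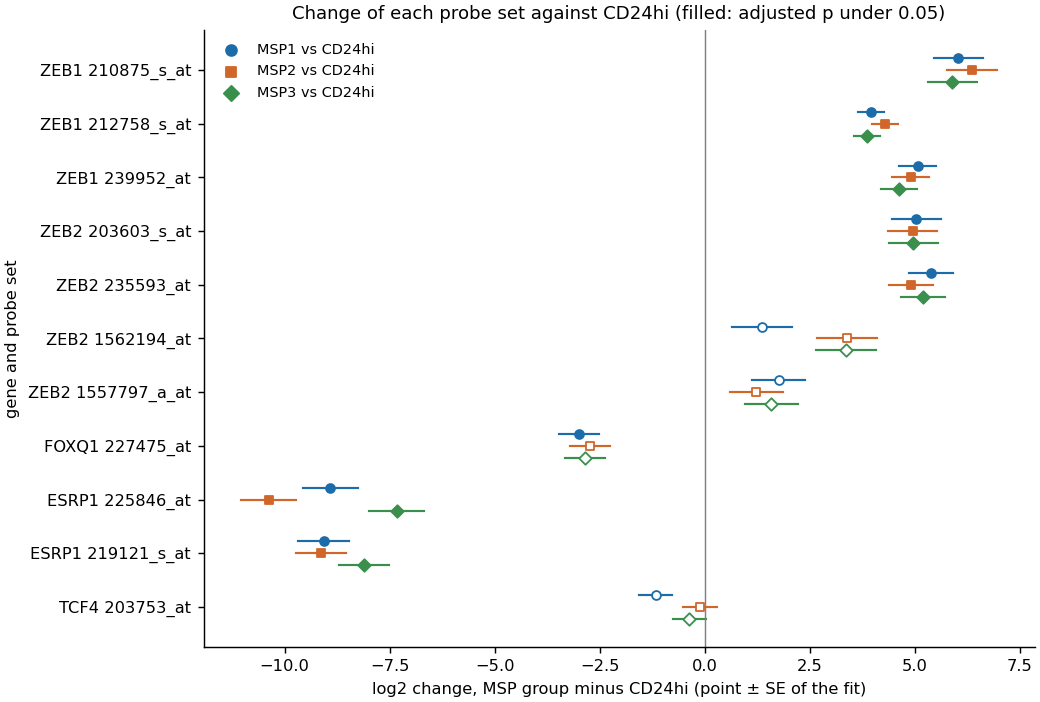
Log2 change of each member probe set (rows) in MSP1, MSP2 and MSP3 against CD24hi (horizontal axis, points with the SE of the fit as bars). Filled symbols have an adjusted p under 0.05. The ZEB1 probe sets sit between 3.87 and 6.37, FOXQ1 between -2.99 and -2.74 and ESRP1 between -10.38 and -7.33, while TCF4 stays between -1.17 and -0.11 with open symbols.

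Among the mesenchymal groups no member differed by the adjusted test. The ZEB1 levels of 210875_s_at were 531 in MSP2, 424 in MSP1 and 385 in MSP3, and neighbours in that order were not separated: MSP3 minus MSP2 was -0.47 (95% interval -1.90 to 0.97). For ZEB2 203603_s_at the levels were 147 in MSP1, 141 in MSP3 and 139 in MSP2, and the MSP2 to MSP1 interval ran from -1.50 to 1.34. Both intervals reach past 1 log2 unit, and the misses do not show that the groups are alike. The shared spread includes CD24hi, whose arrays lay 1.64 (210875_s_at) and 1.58 (203603_s_at) log2 units apart. The MSP pairs lay 0.19 to 0.58 and 0.05 to 0.72 apart, so these intervals may be too wide. For ZEB1 212758_s_at the intervals were -0.41 to 1.08 (MSP2 minus MSP1), -0.84 to 0.65 (MSP3 minus MSP1) and -1.17 to 0.31 (MSP3 minus MSP2). MSP arrays of the same letter deviated together (a minus b differences correlated at 0.696 to 0.835 between MSP groups), which this fit does not use. With the letter as a block over the MSP arrays alone, a check chosen after seeing the data, the lowest unadjusted p-values were 0.00818 for ESRP1 225846_at in MSP3 against MSP2 and 0.0165 and 0.0175 for ZEB2 1562194_at in MSP2 and MSP3 against MSP1, with adjusted p of 0.528, 0.524 and 0.627, and TCF4 had 0.0571 in MSP2 against MSP1. FOXQ1 and ESRP1 were dim in every MSP array, so their order among MSP groups has no footing. The lowest unadjusted p-values were 0.00333 for ESRP1 225846_at in MSP3 against MSP2 (adjusted p = 0.585, all 4 signals at or under 9.39), 0.0293 and 0.0315 for ZEB2 1562194_at in MSP2 and in MSP3 against MSP1, and 0.039 for TCF4 in MSP2 against MSP1. The TCF4 difference was 1.06 (95% interval 0.07 to 2.04, adjusted p = 0.977), with both MSP2 arrays above both MSP1 arrays. No probe set of the array was called by limma in any MSP pair (0%), while 2608, 2334 and 2469 had an unadjusted p under 0.05 in MSP2 against MSP1, MSP3 against MSP1 and MSP3 against MSP2. With dim signals raised to 32, 4 probe sets were called in MSP2 against MSP1 and 1 in MSP3 against MSP1, none of them a member.

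**Figure D3:**
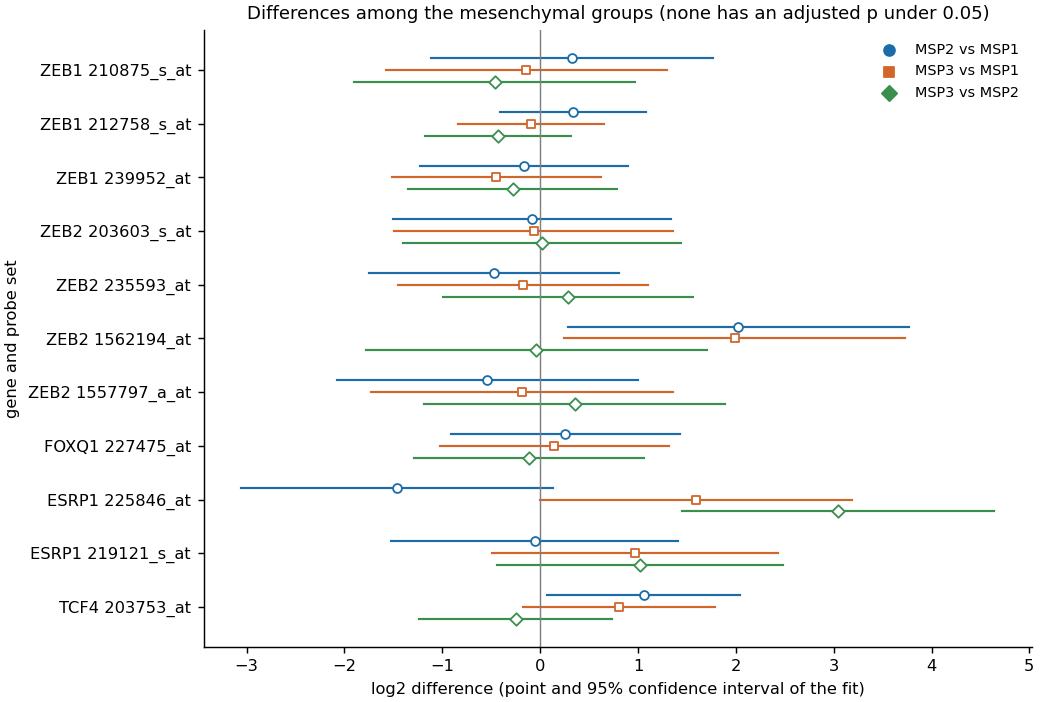
Log2 difference between pairs of MSP groups (horizontal axis) for each member probe set (rows), with 95% intervals of the fit as bars. Most intervals span 0. Those that do not belong to ESRP1 225846_at (1.45 to 4.64 for MSP3 minus MSP2), ZEB2 1562194_at (MSP2 minus MSP1 and MSP3 minus MSP1) and TCF4 (MSP2 minus MSP1), all with an adjusted p of 0.585 or more.

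Other transcription factors of the epithelial-mesenchymal transition were read beside the ZEB factors. Of 22 listed genes 14 were measured, and 4 were called higher in the MSP mean, 0 lower and 10 not called, with a list median log2 change of 0.70 against 0.02 over all probe sets. PRRX1, a paired-related homeodomain factor of mesenchyme, read 63.6 and 17.4 in CD24hi and 1045 to 2467 in MSP, a rise of 45.8-fold (5.52 ± 0.63, adjusted p = 0.0116). Without CD24hi array b the PRRX1 change was 4.58 (adjusted p = 0.0577). FOXC2 and TWIST1, mesenchymal factors of the forkhead and basic helix-loop-helix families, also rose. Of the 4, PRRX1 alone carried a symbol outside the opening part of the table, where 10 listed genes were measured and 1 was called. The other calls are therefore not independent of the naming.

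Genes reported elsewhere as repressed by ZEB1 were read next. Of 28 listed genes 24 were measured, and 0 were called higher, 19 lower (1.59% of the array was called lower) and 5 not called (CLDN4, CLDN7, PPL, SH3YL1 and TMC4), with a median log2 change of -4.62. Of the 19, 17 were named only in the opening part, which was chosen on the authors' p-values, so the share called is not independent of the naming. Among the 5 genes with an array-order symbol 2 fell, the polarity genes PATJ and LLGL2. CDH1 read 6382 and 2950 in CD24hi and 2.06 to 23.7 in MSP, at least 136-fold lower, with a log2 change of -9.09 ± 0.86 (SE) and an adjusted p of 0.00668. EPCAM read 5353 and 2628 in CD24hi and 10.6 to 23.5 in MSP, at least 117-fold lower (-8.05 ± 0.49, adjusted p = 0.00256). Both genes were brighter on CD24hi array a than on b, and without array a CDH1 had an adjusted p of 0.0516. With either CD24hi array left out, 10 of the 24 were called lower rather than 19, a check added after the data were seen. All 24 fitted changes were below 0, also after quantile normalization, and the smallest was -0.59 (SH3YL1, not called).

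The CACCTG form was looked for in the promoter windows of these genes. Of the 24 measured genes, 12 had a RefSeq window, and 10 of the 12 (83.33%) held a match in at least 1 window, against 24.07% of 27305 genes. Of the 10 with a match, 7 were called lower and 3 were not (CLDN7, SH3YL1 and TMC4). Of the 2 without, MARVELD2, a tricellular junction protein, was called lower and CLDN4 was not. Genes with several windows have more chances to hold a match, and the list was drawn from genes already studied as ZEB1 targets, so the share is a description of the list.

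**Figure D4:**
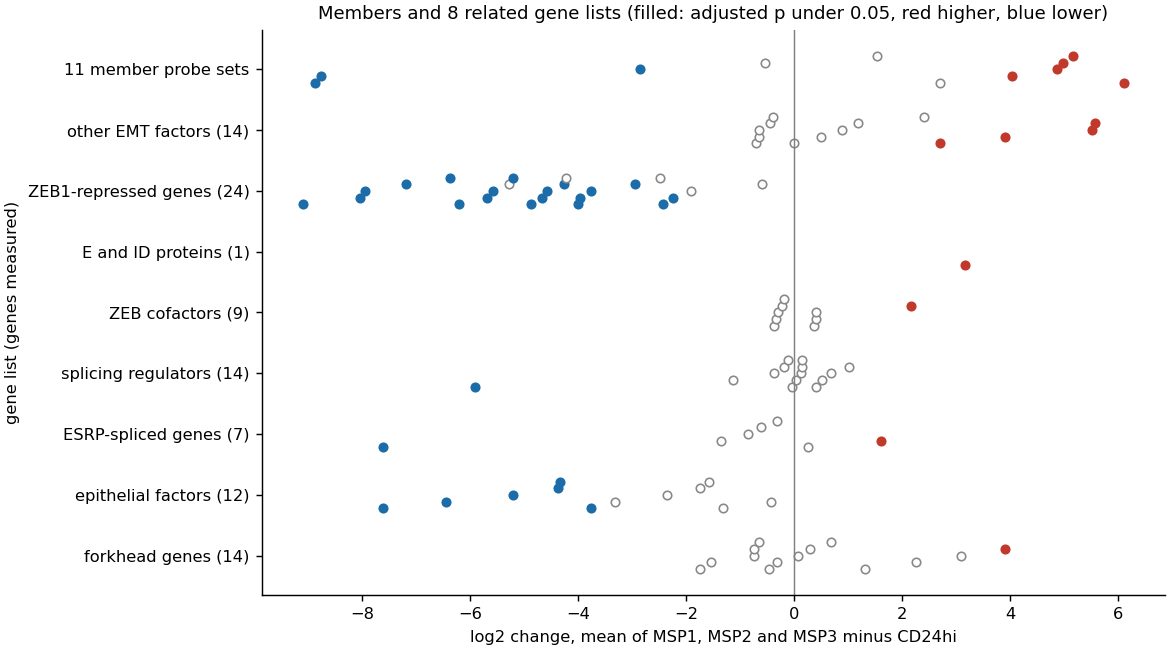
Log2 change of the MSP mean against CD24hi (horizontal axis) for the 11 member probe sets and for the measured genes of 8 related lists (rows, 1 point per gene, with the number measured in brackets). Filled red points were called higher, filled blue points lower and open points were not called. The ZEB1-repressed genes all lie left of 0 with 19 called, while the open points of the cofactors and splicing regulators lie between -1.13 and 1.01.

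Of 13 cofactors that ZEB proteins bind, such as the corepressors CTBP1 and CTBP2, 9 were measured. In the MSP mean 1 was called higher, 0 lower and 8 not called, with a median log2 change of -0.19. The 8 not called had array-order symbols. The 1 called, KAT2B, was named only in the opening part of the authors' table, so its call is not independent of the naming. KAT2B, a histone acetyltransferase that ZEB1 can bind, read 54.1 and 77.7 in CD24hi and 221 to 371 in MSP, 4.51-fold higher, with a log2 change of 2.17 ± 0.34 (SE) and an adjusted p of 0.0297. Its call was lost when any 1 array was left out (adjusted p 0.0529 to 0.103). Among E proteins and ID proteins, the partners and inhibitors of TCF4, 1 of 6 was measured. ID2, which binds E proteins and keeps them off DNA, read 15.4 and 8.22 in CD24hi and 84.0 to 129 in MSP, at least 3.17-fold higher (3.17 ± 0.36, adjusted p = 0.0111). Like KAT2B, ID2 was named only in the opening part.

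ESRP2, the paralog of ESRP1, fell with it. Its signal was 819 and 573 in CD24hi and 5.54 to 15.7 in MSP, at least 21.4-fold lower, with a log2 change of -5.91 ± 0.47 (SE) and an adjusted p of 0.00439. It was the 1 called gene among 14 measured of 19 other splicing regulators, with a median log2 change of 0.08. Of the 14, 0 were called higher and 13 were not called. All 13 not called had an array-order symbol. ESRP2 was named only in the opening part of the authors' table, so its call is not independent of the naming. The 13 not called ran from -1.13 (MBNL2) to 1.01 (PTBP2). Among genes whose transcripts ESRP proteins splice, 7 of 14 were measured, with 1 called higher, 1 lower and 5 not called (median -0.61). FGFR2, a fibroblast growth factor receptor with epithelial and mesenchymal splice forms, read 475 and 171 in CD24hi and 0.568 to 2.89 in MSP, at least 8.90-fold lower (-7.62 ± 0.67, adjusted p = 0.00546). ENAH, an actin regulator, rose from 54.6 and 62.5 to 136 to 220 (1.62 ± 0.28, adjusted p = 0.0388), a call lost when any 1 array was left out (adjusted p 0.0824 to 0.119). CD44, a hyaluronan receptor, read 4323 and 1762 in CD24hi and 997 to 1980 in MSP and was not called (-0.86 ± 0.48). A probe set gives 1 signal for the transcripts it matches, and splice forms were not analysed here. Both FGFR2 and ENAH carried array-order symbols.

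Among other epithelial transcription factors, 12 of 18 were measured, with 0 called higher, 6 lower and 6 not called (median log2 change -3.54). TP63, a master regulator of basal epithelium, read 1222 and 1406 in CD24hi and 0.731 to 15.02 in MSP, at least 41.0-fold lower (-7.63 ± 0.92, adjusted p = 0.0138). EHF, an ETS family factor of epithelia, read 431 and 145 in CD24hi and 0.715 to 8.58 in MSP, at least 7.81-fold lower (-6.46 ± 0.96, adjusted p = 0.0261). GRHL2, OVOL2 and SOX15 also fell, and among the 6 TP63 alone had an array-order symbol. The calls of the others are therefore not independent of the naming. Without CD24hi array a, and also without array b, 2 of the 12 were called lower. The count was 9 of 9 tested with dim signals raised and with the filter on mean signal, 9 of 12 with intensity trend and 10 of 12 with 1 probe set per gene. Without the CD24hi arrays in turn, TP63 had an adjusted p of 0.0761 and 0.090, and EHF 0.124 and 0.0902, and EHF also lost its call without any 1 array of MSP1 or MSP3 (0.0696 to 0.074). The other forkhead genes showed no common direction: of 26 listed 14 were measured, and 1 rose, 0 fell and 13 were not called (median -0.13). Called higher were 3 with dim signals raised, with the filter on mean signal and with intensity trend. With 1 probe set per gene 2 were, and 0 were called lower in each. FOXA1, FOXK1, FOXN1 and FOXP2 had dim levels in every group, where a change cannot be read. The 12 with an array-order symbol had 0 called in the main fit, and the riser was named only in the opening part. FOXC2, the riser, read 137 and 76.2 in CD24hi and 1172 to 1915 in MSP, 14.99-fold higher (3.91 ± 0.37, adjusted p = 0.00648).

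Named genes whose signals ran most alike to each member were found by Pearson's r over the 8 arrays, on log2 signals with dim values raised to 32, among 4355 candidate probe sets. The arrays share the CD24hi to MSP contrast, so r is given as a description. All genes found nearest to ZEB1, ZEB2, ESRP1 and FOXQ1 came from the opening part of the authors' table, chosen on that contrast. Of them ADAM9, IFNLR1, DSCAM and BMP2 were not called in the MSP mean (adjusted p = 0.102, 0.0798, 0.1003 and 0.0941). With dim signals raised they were called. Nearest to ZEB1 210875_s_at were SH3RF3, a ubiquitin ligase (r = 0.995), OMD, a matrix proteoglycan (0.995), and TRAK2, a mitochondrial transport adaptor (0.993). Nearest to ZEB2 203603_s_at were ADAM9, a membrane metalloprotease (0.993), CDKN2C, a cyclin-dependent kinase inhibitor (0.992), and TFPI, an inhibitor of coagulation (0.991). OMD read 2.53 as the CD24hi level and 239 to 391 over the MSP arrays, and TFPI 16.6 and 427 to 940.

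For TCF4 the nearest genes were C6orf47 (r = 0.906), NEO1, a netrin receptor family member (0.896), and RPS6KA5, a nuclear kinase (0.896). As with TCF4, their level was lowest in MSP1: NEO1 read 114 in CD24hi, 64.0 in MSP1, 98.5 in MSP2 and 80.6 in MSP3. ESRP1 and FOXQ1 sit at the dim limit in all 6 MSP arrays, so likeness to them rests on the 2 CD24hi arrays alone, and any gene that is dim in MSP and has a like gap between those arrays scores near 1. The nearest to ESRP1 were S100A8, a calcium-binding protein, CNTNAP2, a neurexin family adhesion protein, and IFNLR1, an interferon lambda receptor subunit. Those nearest to FOXQ1 were DSCAM, an adhesion molecule, SERPINB2, a plasminogen activator inhibitor, and BMP2, a bone morphogenetic protein.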

How the data were processed

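Total RNA of HMLE cells was read on 8 single-colour Affymetrix arrays, grouped by their labels into 4 groups of 2. Per the submitters' processing notes, the tools included Affymetrix Expression Console and limma, with no version; no step, parameter or genome build is stated in these sources. As deposited, the intensity values are linear signals that the authors scaled to the same trimmed mean on every array. The authors' deposited table gives log2 changes and p-values against CD24hi, per the file headers, without saying whether a p-value is adjusted. That table was the only source of gene symbols. It lists 16382 probe sets, first 2256 whose p-value from the authors is 0.05 or less in each of the 3 comparisons. The others follow in array order up to position 14644. Beyond that position, a probe set of a member is analysed here only if it is among those 2256. A probe set there that was unchanged, or that changed in only some of the 3 comparisons, would not be seen.

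The log2 of each signal, without an offset, went into limma 3.58.1 (R 4.3.3), fitting 1 mean for each group with 4 residual and 2.08 prior degrees of freedom. For each probe set the spread is 1 estimate shared by all groups. The CD24hi arrays were less alike than the MSP pairs, so SE and p-values against CD24hi may be too small. Those among the MSP groups may be too large for the same reason. Tests were two-sided, with Benjamini-Hochberg adjustment over 54613 probe sets (62 controls left out) and calls at an adjusted p under 0.05. "MSP mean" is the mean of MSP1, MSP2 and MSP3 with equal weight, and a group level is the geometric mean of its arrays. Where the dimmer side was under 32, a fold is the brighter level over 32. Signals under 32 have wide spread, and folds from them are bounds only. The labels do not call arrays a and b separate cultures, so p-values measure the spread between arrays, which may be technical. The members, gene lists, dim limit and contrasts were chosen with earlier results of these data known. A list gene was represented by its brightest named probe set. Named from each list were the 2 widest called rises and falls of the MSP mean, or the brightest gene where none was called, plus genes named to make up a count; 3 nearest genes by correlation were named per member. Some list genes that the rule would name are not reported here. Likeness candidates had 1 symbol, a group mean of at least 32 and a range of at least 1 log2 unit. The fit was tested on simulated data with the same spread in every group. That test does not bear on the wider gap between the CD24hi arrays. Alternatives were quantile normalization, raising dim signals to 32, a filter on mean signal, intensity trend with robust moderation, 1 named probe set per gene, the mean of a gene's probe sets, the array letter as a block and leaving out each array. Samples with the same letter deviated together among the MSP groups but not between CD24hi and MSP, so the letter was not used as a block in the fit over all groups.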

Additional observations from a re-analysis of the deposited data

How the results depend on the processing

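ZEB1, ZEB2 and ESRP1, by their brightest probe sets, kept direction and call in the MSP mean under all 15 alternatives, with log2 changes of 3.79 to 6.92, 2.15 to 5.78 and -9.19 to -5.22. FOXQ1 stayed lower under all 14 it could be computed for (-3.37 to -1.31) and lost its call in 7 leave-outs, with changes of -2.97 to -2.35; the cause was not tested. The filter on a mean signal of at least 32 dropped FOXQ1, and ZEB2's 2 dim probe sets gave no value with signals raised to 32. TCF4 was not called under any of its alternatives, and in MSP2 it moved from -0.11 to 0.06 without CD24hi array a, and ranged from -0.31 to 0.091 over the leave-outs, above 0 also without MSP2 array b. The count of called probe sets in the MSP mean, 1731, became 3370 with signals under 32 raised to 32 (27251 tested), 3179 with the filter (23120 tested) and 3158 with intensity trend and robust moderation; in MSP1 it went from 988 to 2014, 1949 and 1888, in MSP2 from 851 to 1973, 1860 and 1714, and in MSP3 from 860 to 2149, 2043 and 1908. Raising signals to 32 gave 4 calls in MSP2 against MSP1 and 1 in MSP3 against MSP1, from 0. Leaving out 1 array gave 799 to 1199 calls in the MSP mean, 0 to 552 in MSP1, 0 to 464 in MSP2 and 0 to 619 in MSP3. The 0 counts arose in limma when the MSP group itself was reduced to 1 array, whose spread is then taken from the other groups; in MSP1, 5249 and 5367 probe sets still had an unadjusted p under 0.05. Without CD24hi array a 69.9% of calls in the MSP mean were higher, against 49.7% with all arrays.

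Arrays with the same letter did not pair across all groups: the a minus b differences correlated at -0.430 to -0.332 between CD24hi and the MSP groups and at 0.696 to 0.835 between MSP groups. With a replicate block the counts were 1301 in the MSP mean, 572 in MSP1, 529 in MSP2 and 592 in MSP3, and FOXQ1 kept its call in the MSP mean (adjusted p = 0.049) but not in MSP1 (0.0922), and ZEB2 203603_s_at lost its call in MSP2 (0.0515), as did KAT2B (0.0572) and ENAH (0.069) in the MSP mean. With the 6 MSP arrays alone and a replicate block, added after the data were seen, limma called 0 probe sets in each MSP pair, with 4281, 3566 and 3895 at an unadjusted p under 0.05. Signal over background limits ZEB1, ZEB2, FOXQ1 and ESRP1, whose low side lies under 32, where no order can be read.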
